A study of Mus musculus with 2 samples.

Results

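The genes described here are 10 mouse genes that the transcription factor NF-kB controls or that feed back on it: the receptor genes Tnfrsf1a and Tnfrsf1b, the receptor adaptor genes Traf1 and Birc3, the NF-kB subunit genes Nfkb1, Nfkb2 and Relb, the inhibitor genes Nfkbia and Tnfaip3, and the target gene Tnfaip2. They were chosen by name from the 32285 genes counted, and their level was measured as unique molecular identifiers (UMIs, counted RNA molecules) scaled to the total UMIs of the same cells, as counts-per-million (CPM), in endothelial classes and in immune, epithelial and stromal cells of the same libraries. All 10 members passed the minimum of 100 UMIs over the endothelial cells of both libraries, which 12314 of all genes passed. The data were droplet single-cell 3′ RNA-seq of cells sorted as CD31+CD45- from tumors of the mouse melanoma line YUMMER1.7 in female mice of 8 to 10 weeks, with tumors of 3 mice pooled into 1 library per condition. The Dnmt1iECKO library came from Cdh5CreERT2;Dnmt1fl/fl;ZsGreenlsl/lsl mice, in which tamoxifen removes the DNA methyltransferase gene Dnmt1 from every Cdh5-expressing endothelial cell of the body and not from tumor vessels alone. The genotype label of the control library reads C57BL/6, while the methods of the study name VEcad-CreERT2 mice with the ZsGreen reporter and intact Dnmt1 as controls. The labels call the tumors subcutaneous and the source melanoma cells, the study's methods describe lung tumors, and both libraries held clusters with alveolar lining markers.

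NF-kB is a family of dimeric transcription factors that inhibitor proteins hold in the cytoplasm until ligands such as TNF or IL-1 bind their receptors and a kinase complex marks the inhibitor for degradation. The freed dimers switch on genes for adhesion molecules, chemokines and survival factors, and also the genes for their own inhibitors, so that transcripts such as those of Nfkbia and Tnfaip3 serve as read-outs of recent pathway activity. In endothelium the pathway is best known for the adhesion molecules that let leukocytes leave the blood, most of all in venules.

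By the GENCODE vM21 annotation of GRCm38, Tnfrsf1a lies at chr6:125349362-125362484 on the + strand, and Tnfrsf1b lies at chr4:145213463-145246870 on the - strand. Traf1 lies at chr2:34941750-34961772 and Birc3 at chr9:7848699-7873186, both on the - strand. Nfkb1 occupies chr3:135584655-135691547 on the - strand, Nfkb2 chr19:46304320-46312385 on the + strand and Relb chr7:19606217-19629438 on the - strand. Nfkbia occupies chr12:55489410-55492647 on the - strand, Tnfaip3 chr10:19000910-19015657 on the - strand and Tnfaip2 chr12:111442469-111455018 on the + strand. Nfkb1 overlaps the gene model Gm43430 on its own strand, so its counts can share reads with that model. Nfkb2 overlaps AC114539.1 and Psd, and Tnfaip2 overlaps Gm40578, in each case on the other strand. Promoter windows (250 bases before and 50 after the start) were taken from RefSeq for GRCm38.p6, in which 8 of the 10 members had 11 windows, and Nfkb1 and Relb had none. The kappaB consensus, the motif that NF-kB dimers bind, was searched on both strands and was found in 5 of the 11 windows (45.5%), against 4.51% of all 32851 windows of the same length. These 5 windows belonged to Nfkbia, Tnfaip3 and Nfkb2, and windows 2 and 3 of Nfkb2 overlap each other and hold 1 match in common. By gene, 3 of the 8 members with a window had a match. The members were chosen as genes that NF-kB controls or that feed back on it, so a share above that of all windows is no independent result. The windows of Traf1, Tnfaip2, Tnfrsf1a, Tnfrsf1b and Birc3 held no consensus match, which says only that these letters are not in those bases. The windows of the inhibitor genes Nfkbia and Tnfaip3 are shown because they carry the motif, and those of Traf1 and Tnfrsf1b because these members were past the fold in all endothelial cells. Tnfaip2 was past the fold too, but its stretch, of 58 bases, is not shown. Each is the longest stretch before the start that no annotated untranslated region covers, 5′ to 3′ on the gene's strand. Capitals mark a consensus match in either orientation. They are chr12:55492648-55492897 for Nfkbia, chr10:19015411-19015547 for the first Tnfaip3 window, chr2:34961773-34962022 for Traf1 and chr4:145246871-145247120 for Tnfrsf1b, all on the - strand.
Nfkbia: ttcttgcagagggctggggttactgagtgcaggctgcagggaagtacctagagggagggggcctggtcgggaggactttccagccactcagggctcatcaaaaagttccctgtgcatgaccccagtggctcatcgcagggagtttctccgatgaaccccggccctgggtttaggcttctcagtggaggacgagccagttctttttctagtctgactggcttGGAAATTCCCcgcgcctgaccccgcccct
Tnfaip3: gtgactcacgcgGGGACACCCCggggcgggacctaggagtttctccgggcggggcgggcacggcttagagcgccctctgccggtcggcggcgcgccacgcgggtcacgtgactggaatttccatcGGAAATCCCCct
Traf1: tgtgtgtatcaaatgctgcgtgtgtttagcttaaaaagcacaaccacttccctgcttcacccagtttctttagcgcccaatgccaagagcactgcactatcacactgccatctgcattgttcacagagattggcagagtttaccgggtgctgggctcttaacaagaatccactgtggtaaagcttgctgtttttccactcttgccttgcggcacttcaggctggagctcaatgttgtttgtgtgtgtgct
Tnfrsf1b: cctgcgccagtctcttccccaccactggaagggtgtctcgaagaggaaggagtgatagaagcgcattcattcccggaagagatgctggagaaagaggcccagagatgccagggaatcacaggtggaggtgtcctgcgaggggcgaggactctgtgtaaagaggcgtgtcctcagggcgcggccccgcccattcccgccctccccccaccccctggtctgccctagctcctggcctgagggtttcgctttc

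The control library held 9301 cell barcodes with 123830489 UMIs and the Dnmt1iECKO library 9522 with 141433493, of which 8021 and 8102 passed the quality limits, and 29 barcodes occurred in both libraries. Endothelial cells were those of endothelial clusters with a UMI of Cdh5 or Pecam1 and none of Ptprc, 4432 in the control and 1871 in the Dnmt1iECKO library, with 51397623 and 23120724 UMIs and medians of 9878 and 9948 UMIs per cell. Despite the CD45- sort, 1187 and 3946 cells lay in the immune classes used here, and the Dnmt1iECKO library alone held nearly all cells of clusters led by Rag1 (0 and 158 cells) and by Hist1h1a and Dntt (1 and 107), which were left out. Dnmt1, the targeted gene, was at 51.9 CPM in control and 27.6 CPM in Dnmt1iECKO endothelial cells, a log2 ratio of -0.91 (95% interval -1.04 to -0.78). With 1 library per condition no difference has a replicate check and no test was made. Every interval here covers counting error only, and a member counts as higher or lower where its log2 ratio of Dnmt1iECKO over control is at least 0.5 in size and the interval leaves out 0. In the whole population fewer cells of a class and less RNA per cell cannot be told apart, so each member is also given by class.

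Over all endothelial cells, Traf1, Tnfaip2 and Tnfrsf1b were higher in the Dnmt1iECKO library and no member was lower. These 3 of 10 stand beside 5.79% of all tested genes past the same fold upward and 3.02% downward. The inhibitor genes Nfkbia and Tnfaip3 and the subunit gene Relb were above the control value by less than that fold, and Tnfrsf1a was slightly below it. The median log2 ratio of the members was 0.37, against -0.01 over the 12314 genes tested, and 9 of the 10 intervals lay above 0. The 3 members past the fold were the sparsest in endothelial cells, with 217 to 377 UMIs each in the control library.

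Tnfrsf1a encodes the widely made TNF receptor that carries the death domain. Its endothelial level was 175 CPM in control and 166 CPM in Dnmt1iECKO cells, a log2 ratio of -0.08 (-0.13 to -0.02), so the libraries lay close together. After each cell was thinned to 2000 UMIs, 26.8% of control and 26.7% of Dnmt1iECKO endothelial cells held a Tnfrsf1a UMI. It was evenly spread over the vessel classes, from 135 CPM in Gja5/Bmx cells to 194 CPM in Slc6a2/Selp cells of the control library. Only neutrophil-like cells, at 336 and 309 CPM, had a level above every endothelial class in both libraries, and B cell-like cells, at 1.27 and 1.90 CPM, rested on 2 and 11 UMIs.

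Tnfrsf1b encodes the second TNF receptor, which lacks a death domain and signals through TRAF proteins. In endothelial cells it was at 5.93 CPM in control and 9.56 CPM in Dnmt1iECKO cells, a log2 ratio of 0.69 (0.43 to 0.94), from 305 and 221 UMIs. The Dnmt1iECKO value was the higher one, but the thinned shares of cells, 1.32% (1.00 to 1.72) and 1.56% (1.03 to 2.26), had overlapping intervals. Within endothelium its level ran from 1.73 and 2.14 CPM in Ednrb/Car4 cells to 22.9 and 42.2 CPM in Slc6a2/Selp cells. It is chiefly a leukocyte gene in these libraries, with 190 CPM in all control immune cells and 192 CPM in those of the Dnmt1iECKO library.

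Traf1 encodes a signalling adaptor of the TNF receptor family that is itself made on NF-kB activation. Its endothelial level was 4.22 CPM in control and 9.26 CPM in Dnmt1iECKO cells, a log2 ratio of 1.13 (0.85 to 1.41), the largest among the members, from 217 and 214 UMIs. The thinned share of cells was 0.432% (0.256 to 0.682) in the control and 1.15% (0.706 to 1.78) in the Dnmt1iECKO library, and at full depth the shares were 2.75% and 5.83%. Fibroblast-like cells, thinned alike, gave 0.749% and 0.553%, and the full-depth shares there were 7.12% and 9.26% at medians of 23058 and 20653 UMIs, so the control endothelial share was not above that of fibroblast-like cells. T cell-like cells, in which the gene is abundant, stood at 332 and 285 CPM. Without the endothelial cells that held any UMI of the immune marker lists, the Traf1 level was 3.80 CPM in control and 3.88 CPM in Dnmt1iECKO cells, a log2 ratio of 0.03 (-0.57 to 0.60).

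Birc3 encodes a ubiquitin ligase that binds TRAF proteins at the receptor and protects cells from death. The level in endothelial cells was 127 CPM in control and 146 CPM in Dnmt1iECKO cells, a log2 ratio of 0.20 (0.14 to 0.27), the Dnmt1iECKO value being the higher by less than the fold. It marked the capillary classes apart, with 38.8 and 37.0 CPM in Ednrb/Car4 cells and 161 and 172 CPM in Kit/Bmp6 cells, and the intervals of these classes did not overlap in either library.

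Nfkb1 encodes the precursor of a DNA-binding subunit of the canonical pathway. Its endothelial level was 259 CPM in control and 269.8 CPM in Dnmt1iECKO cells, a log2 ratio of 0.06 (0.02 to 0.10), the nearest to 0 of all members. Nfkb2 encodes the precursor of the partner of Relb in the non-canonical pathway. The level of Nfkb2 was 39.0 CPM in control and 44.3 CPM in Dnmt1iECKO cells, a log2 ratio of 0.18 (0.07 to 0.29). Relb encodes the transactivating subunit of that pathway. The level of Relb was 94.2 CPM in control and 128.5 CPM in Dnmt1iECKO cells, a log2 ratio of 0.45 (0.38 to 0.51), just under the fold. The thinned share of cells with a Relb UMI was 14.0% (12.98 to 15.1) in the control and 17.2% (15.4 to 19.0) in the Dnmt1iECKO library, so these intervals did not overlap.

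Nfkbia encodes the inhibitor that captures NF-kB dimers and is remade within minutes of their release. Its endothelial level was 961 CPM in control and 1184 CPM in Dnmt1iECKO cells, a log2 ratio of 0.30 (0.28 to 0.32). Tnfaip3 encodes the ubiquitin-editing enzyme that shuts down signalling from TNF receptors. The endothelial level of Tnfaip3 was 85.2 CPM in control and 117 CPM in Dnmt1iECKO cells, a log2 ratio of 0.46 (0.39 to 0.53), just under the fold. Both feedback genes thus stood higher in the Dnmt1iECKO library without passing the fold. The thinned share of cells with a Tnfaip3 UMI was 10.4% (9.53 to 11.4) in the control and 14.1% (12.5 to 15.9) in the Dnmt1iECKO library, while for Nfkbia it was 62.1% (60.6 to 63.6) and 65.6% (63.3 to 67.8), the intervals overlapping.

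Tnfaip2 is a TNF-induced gene whose product takes part in membrane protrusions. Its endothelial level was 7.34 CPM in control and 13.9 CPM in Dnmt1iECKO cells, a log2 ratio of 0.93 (0.71 to 1.14), from 377 and 322 UMIs. The thinned share of cells was 1.35% (1.02 to 1.74) in the control and 2.42% (1.75 to 3.26) in the Dnmt1iECKO library, the latter higher with no overlap of the intervals. T cell-like cells, which hardly express it, gave 0.571% (0.0693 to 2.05) and 0.147% (0.0178 to 0.528) when thinned alike, and 0.845% and 1.94% at full depth with medians of 8860 and 8966 UMIs. Against endothelial full-depth shares of 6.02% and 10.2%, the T cell values are the lower ones in both libraries, although the thinned control interval of the T cells includes the endothelial share.

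**Figure D1:**
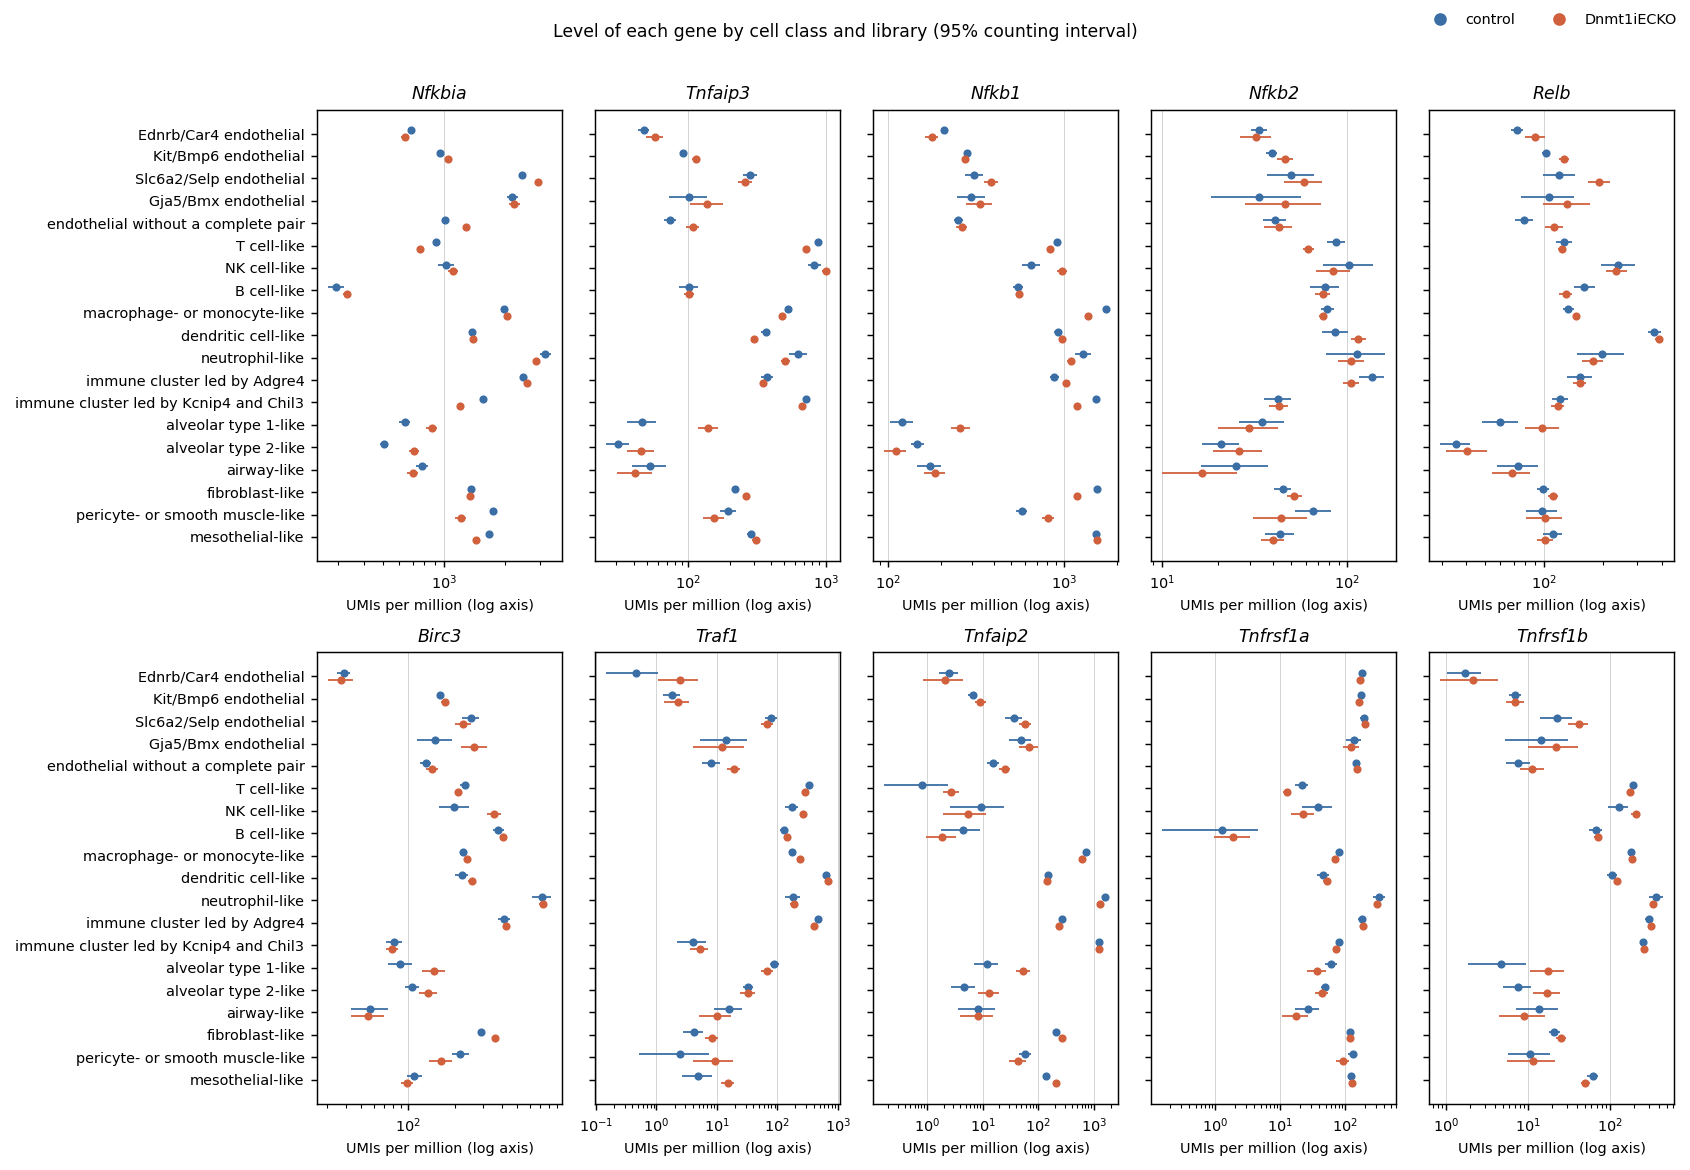
CPM (log axis) of each of the 10 members, 1 panel each, in 19 classes of cells, with 1 point per library and bars for the exact 95% counting interval. Nfkbia was highest in neutrophil-like cells of the control library and in Slc6a2/Selp endothelial cells of the Dnmt1iECKO library, and Traf1, Tnfaip2 and Tnfrsf1b lay far lower in the capillary classes than in neutrophil-like cells.

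The endothelial cells were next split by 4 pairs of marker genes, each class holding a UMI of both genes of its pair and of no other complete pair: Ednrb/Car4 (1056 control and 323 Dnmt1iECKO cells), Kit/Bmp6 (1832 and 730), Slc6a2/Selp (60 and 67) and Gja5/Bmx (31 and 30). A pair needs 2 detected genes in a cell, so deep cells are favoured, and 734 and 424 cells held no complete pair while 719 and 297 held 2 or more. The cells of the first class lay mostly in the aerocyte-like cluster (84.9% and 86.7%), those of the second in the general capillary-like clusters (77.5% and 67.3%), those of the third in the vein-like cluster (96.7% and 97.01%) and those of the fourth in the artery-like cluster (71.0% and 73.3%). Members with fewer than 20 UMIs in a class over both libraries were not compared there.

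No member passed the fold in the capillary classes, 3 did in the Slc6a2/Selp class and 1 in the Gja5/Bmx class. In Ednrb/Car4 cells none of 9 members passed the fold, with 2.55% of all genes past it upward and 4.12% downward, and the median ratio of the members was -0.07. In Kit/Bmp6 cells none of 10 members passed it, beside 3.75% and 3.16% of all genes, with a median of 0.18. In Slc6a2/Selp cells 3 of 10 were higher and none lower, beside 5.4% and 5.8% of all genes, with a median of 0.24. In Gja5/Bmx cells 1 of 8 was higher, beside 5.23% and 6.33%, with a median of 0.38, the highest of the 4 classes, though 7 of the 8 intervals included 0. Dnmt1 itself was at 35.4 and 39.0 CPM in Slc6a2/Selp cells, from 34 and 48 UMIs, a log2 ratio of 0.14 (-0.53 to 0.81), so its loss was not detectable in that class at this depth, whereas in the whole vein-like cluster it was at 32.15 and 19.2 CPM, a log2 ratio of -0.74 (-1.20 to -0.29), and in Kit/Bmp6 cells at 55.9 and 28.7 CPM.

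In Slc6a2/Selp cells the non-canonical subunit gene Relb was at 119.9 CPM in control and 192 CPM in Dnmt1iECKO cells, a log2 ratio of 0.68 (0.35 to 1.02). The receptor gene Tnfrsf1b was at 22.9 CPM in control and 42.2 CPM in Dnmt1iECKO cells there, a log2 ratio of 0.88 (0.14 to 1.67), from 22 and 52 UMIs. The target gene Tnfaip2 was at 36.5 CPM in control and 58.4 CPM in Dnmt1iECKO cells, a log2 ratio of 0.68 (0.08 to 1.31). All 3 were higher in the Dnmt1iECKO library, with wide intervals for the sparse pair. The inhibitor genes differed less: Nfkbia was at 2449 and 2927 CPM, a log2 ratio of 0.26 (0.18 to 0.33), and Tnfaip3 at 282.5 and 259 CPM, a log2 ratio of -0.13 (-0.36 to 0.11). Traf1, at 79.2 CPM in control and 68.2 CPM in Dnmt1iECKO cells, gave a log2 ratio of -0.22 (-0.68 to 0.25) in the class where its endothelial level was highest. Summed macrophage or monocyte markers in these cells were at 87.6 and 40.6 CPM, with 4 and 2 of the 8 genes at 0, and summed T cell markers at 6.25 and 6.49 CPM, with 4 and 2 of 6 at 0. When the pairs were read after thinning every cell to 2000 UMIs, 34 and 57 cells made up the class. There 1 member was higher and 3 were lower, counts for which no share of all genes is given. The Tnfrsf1b ratio turned to -0.30 and that of Tnfaip2 to 0.03, while that of Relb was 0.62 (0.29 to 0.95). The calls of Tnfrsf1b and Tnfaip2 in this class thus rest on how its cells are picked, and Relb stayed past the fold under each of the 11 alternatives, from 0.62 to 1.05.

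In Ednrb/Car4 cells, the capillary cells that face the air, Nfkbia was at 683.5 CPM in control and 639 CPM in Dnmt1iECKO cells, a log2 ratio of -0.10 (-0.17 to -0.03). Relb, at 72.7 and 90.6 CPM, had the highest ratio of that class, 0.32 (0.12 to 0.51), and Nfkb1, at 207 and 177 CPM, the lowest, -0.23 (-0.37 to -0.10). In Kit/Bmp6 cells, the general capillary cells, Tnfaip3 was at 91.8 CPM in control and 114 CPM in Dnmt1iECKO cells, a log2 ratio of 0.31 (0.20 to 0.42). Tnfaip2 had the highest ratio there, 0.46 (0.03 to 0.87), from 6.66 and 9.14 CPM, and Tnfrsf1b stood at 6.999 and 7.12 CPM, a log2 ratio of 0.02 (-0.44 to 0.47). Of the members that were higher over all endothelial cells, Tnfaip2 and Tnfrsf1b did not pass the fold in either capillary class. Traf1 did not pass it in Kit/Bmp6 cells, and in Ednrb/Car4 cells its 5 and 8 UMIs were too few to compare. In Gja5/Bmx cells, the arterial class, Birc3 was at 149 CPM in control and 264 CPM in Dnmt1iECKO cells, a log2 ratio of 0.83 (0.36 to 1.30), and in the whole artery-like cluster at 152 and 277 CPM, 0.87 (0.52 to 1.22). Thinned shares of cells with a Birc3 UMI were 12.9% (3.63 to 29.8) and 10% (2.11 to 26.5) in Gja5/Bmx cells. In the artery-like cluster they were 15.3% (7.22 to 27.0) and 18.5% (9.92 to 30.0). The intervals overlapped in both. At full depth the shares were 51.6% and 66.7% in Gja5/Bmx cells and 50% and 47.7% in the cluster. Nfkbia in Gja5/Bmx cells was at 2188 and 2235 CPM, a log2 ratio of 0.03 (-0.10 to 0.16).

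**Figure D2:**
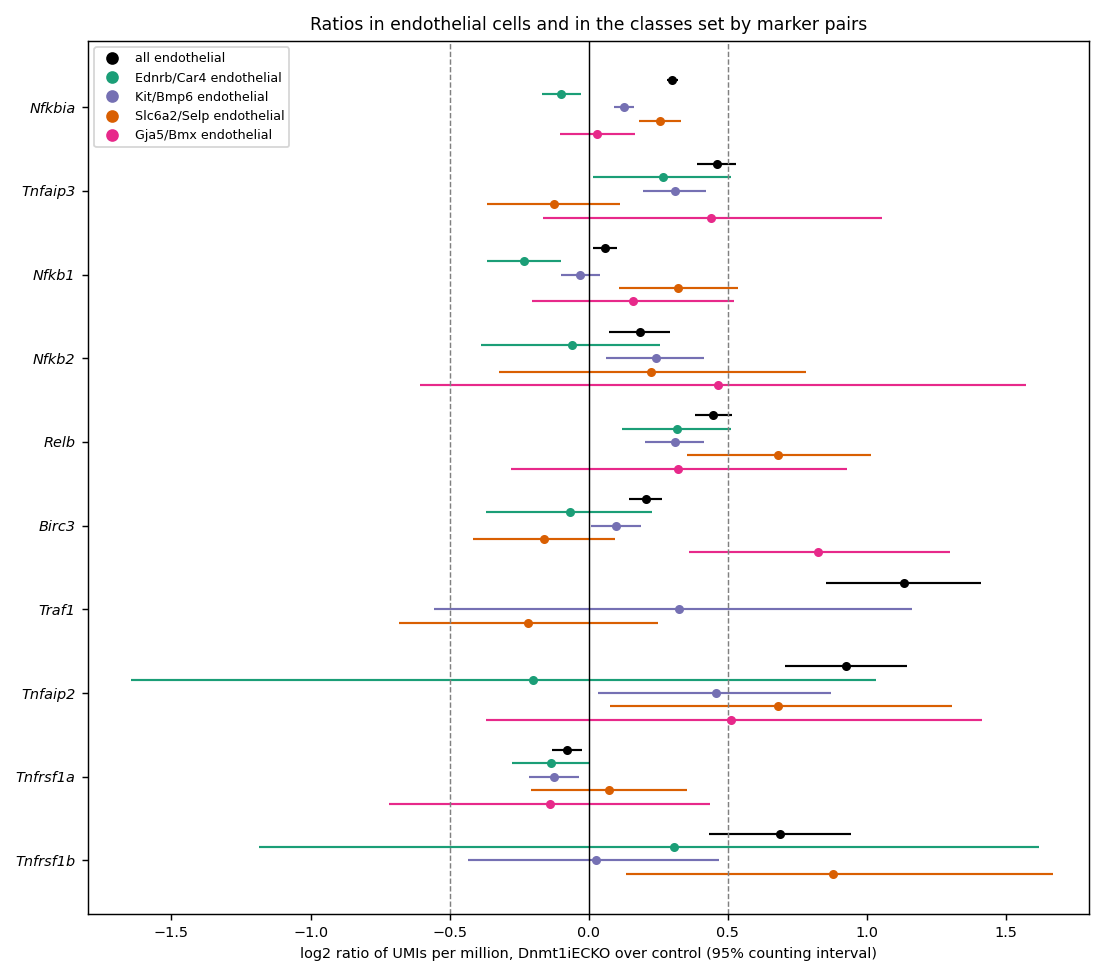
Log2 ratio of CPM, Dnmt1iECKO over control, of each member in all endothelial cells and in the 4 classes, with bars for the exact 95% counting interval and dashed lines at a log2 ratio of 0.5 in either direction. Relb, Tnfaip2 and Tnfrsf1b pass the line with intervals above 0 in Slc6a2/Selp cells and Birc3 in Gja5/Bmx cells, and none does in Ednrb/Car4 or Kit/Bmp6 cells; members with too few UMIs in a class are not drawn.

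Clusters named from markers gave the same higher members in venous and in arterial cells, but also 1 higher member for each kind of capillary cell. In the vein-like cluster (240 and 211 cells) Relb was at 101 CPM in control and 164 CPM in Dnmt1iECKO cells, a log2 ratio of 0.69 (0.50 to 0.89), Tnfaip2 had a ratio of 0.62 (0.17 to 1.07) and Tnfrsf1b one of 0.56 (0.08 to 1.05), while 3.54% of all genes were past the fold upward and 4.7% downward. In the general capillary-like clusters Tnfaip3 was at 77.0 and 111 CPM, a log2 ratio of 0.53 (0.40 to 0.66), the 1 member past the fold, beside 3.03% of all genes upward and 3.66% downward. In the aerocyte-like cluster only Traf1 passed it, from 11 UMIs in each library, beside 3.4% upward and 2.97% downward. In the artery-like cluster Birc3 alone did, beside 4.56% upward and 6.46% downward. One of the general capillary-like clusters, led by Adamts9 and Ifit1 (720 and 229 cells), and a cluster led by Ubd, which carried no class name, were also read alone. In the first, whose cells are part of the general capillary-like count above, Tnfaip3 was at 136 CPM in control and 204 CPM in Dnmt1iECKO cells, a log2 ratio of 0.58 (0.44 to 0.72), beside 2.46% of all genes upward and 4.76% downward. In the second, Relb was at 100.2 and 151 CPM, a log2 ratio of 0.59 (0.36 to 0.82), beside 4.96% and 3.23%. Among proliferating endothelial cells Traf1 (15 and 22 UMIs) and Tnfaip2 (19 and 34 UMIs) were higher, beside 4.33% and 4.91%. Cells without a complete pair, whose median depth was 3858 and 4469 UMIs, had 4 members higher, Tnfaip3, Relb, Traf1 and Tnfaip2, beside 4.91% upward and 4.11% downward, and cells with 2 or more pairs had 3, Relb, Tnfaip2 and Tnfrsf1b, beside 5.66% and 3.4%.

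Because the members differ so much between vessel classes, the makeup of the endothelial cells was set beside their ratios. Of the control endothelial cells 5.42% (4.77 to 6.12) lay in the vein-like cluster, and of the Dnmt1iECKO endothelial cells 11.3% (9.88 to 12.8). It held 54.8% of the control Traf1 UMIs and 57.9% of those of the Dnmt1iECKO library, and 21.3% and 39.4% of the Tnfrsf1b UMIs. It held 19.6% and 31.99% of the UMIs of Tnfaip2, and 12.4% and 25.0% of those of Nfkbia. Each of these shares exceeded the share of cells, most of all for Traf1. The vein-like cells were also deeper, with medians of 13004 and 12095 UMIs against 9878 and 9948 over all endothelial cells. Their cluster held 3669950 of 51397623 control and 3326037 of 23120724 Dnmt1iECKO endothelial UMIs of all genes. The shares of Tnfrsf1a, 7.78% and 15.6%, and of Nfkb2, 7.44% and 15.7%, lay nearer the share of cells. Outside that cluster Tnfrsf1b was at 5.03 CPM in control and 6.77 CPM in Dnmt1iECKO cells, a log2 ratio of 0.43 (0.11 to 0.74), below the fold. Traf1 was at 2.05 and 4.55 CPM there, a log2 ratio of 1.15 (0.72 to 1.57), and Tnfaip2 at 6.35 and 11.1 CPM, a log2 ratio of 0.80 (0.54 to 1.06), so that 2 of 10 members were higher, beside 6.69% of all genes upward and 3.39% downward. With the class levels of each library weighted by the class sizes of the control library, the log2 ratio of Traf1 was 0.52, of Tnfaip2 0.51 and of Tnfrsf1b 0.36.

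Summed markers of other cell types in the endothelial cells differed between the libraries in both directions. In the endothelial cells, summed macrophage or monocyte markers were at 27.8 CPM in control and 50.5 CPM in Dnmt1iECKO cells, with none of the 8 genes at 0 in either. Summed T cell markers were at 3.68 and 7.53 CPM with none of 6 at 0, NK cell markers at 0.370 and 1.86 CPM with 2 and 0 of 6 at 0, B cell markers at 1.67 and 3.33 CPM with none of 6 at 0, and neutrophil markers at 1.89 and 9.56 CPM with none of 6 at 0. Lower in the Dnmt1iECKO library were dendritic cell markers, at 113.6 and 100.5 CPM with 0 and 1 of 7 at 0, and alveolar type 1 markers at 1243 and 1083 CPM and type 2 markers at 88.7 and 55.8 CPM, with none of 6 at 0 in either list. Type 1 markers were at 2186 and 2375 CPM in Ednrb/Car4 cells, higher in the Dnmt1iECKO library, and at 202 and 186 CPM in Gja5/Bmx cells. How far the lists that were lower reflect RNA of other cells or the makeup of the endothelial cells was not tested. A UMI of any of the 5 immune lists that were higher was in 28.9% (27.6 to 30.3) of control and 50.9% (48.6 to 53.2) of Dnmt1iECKO endothelial cells. In the 3150 and 918 cells without one, Tnfaip2 was at 6.04 CPM in control and 14.7 CPM in Dnmt1iECKO cells, a log2 ratio of 1.28 (0.94 to 1.61), and Tnfrsf1b at 5.85 and 8.45 CPM, a log2 ratio of 0.53 (0.12 to 0.93). These 2 members were past the fold, beside 5.06% of all genes upward and 3.57% downward, and Traf1, as given above, was not. Thinned shares of these cells with a Tnfrsf1b UMI lay close together, at 1.13% (0.78 to 1.59) and 1.11% (0.51 to 2.10). For Tnfaip2 they were 1.24% (0.87 to 1.71) and 2.35% (1.42 to 3.64), with overlapping intervals. Tnfaip3 was at 73.2 and 86.5 CPM in those cells, a log2 ratio of 0.24 (0.12 to 0.36), and Nfkbia at 891 and 1028 CPM, a log2 ratio of 0.21 (0.17 to 0.24), and the median of the members was 0.20. Leaving out cells by a marker UMI also favours shallower cells, with medians of 8992 and 7877 UMIs per cell in those kept.

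**Figure D3:**
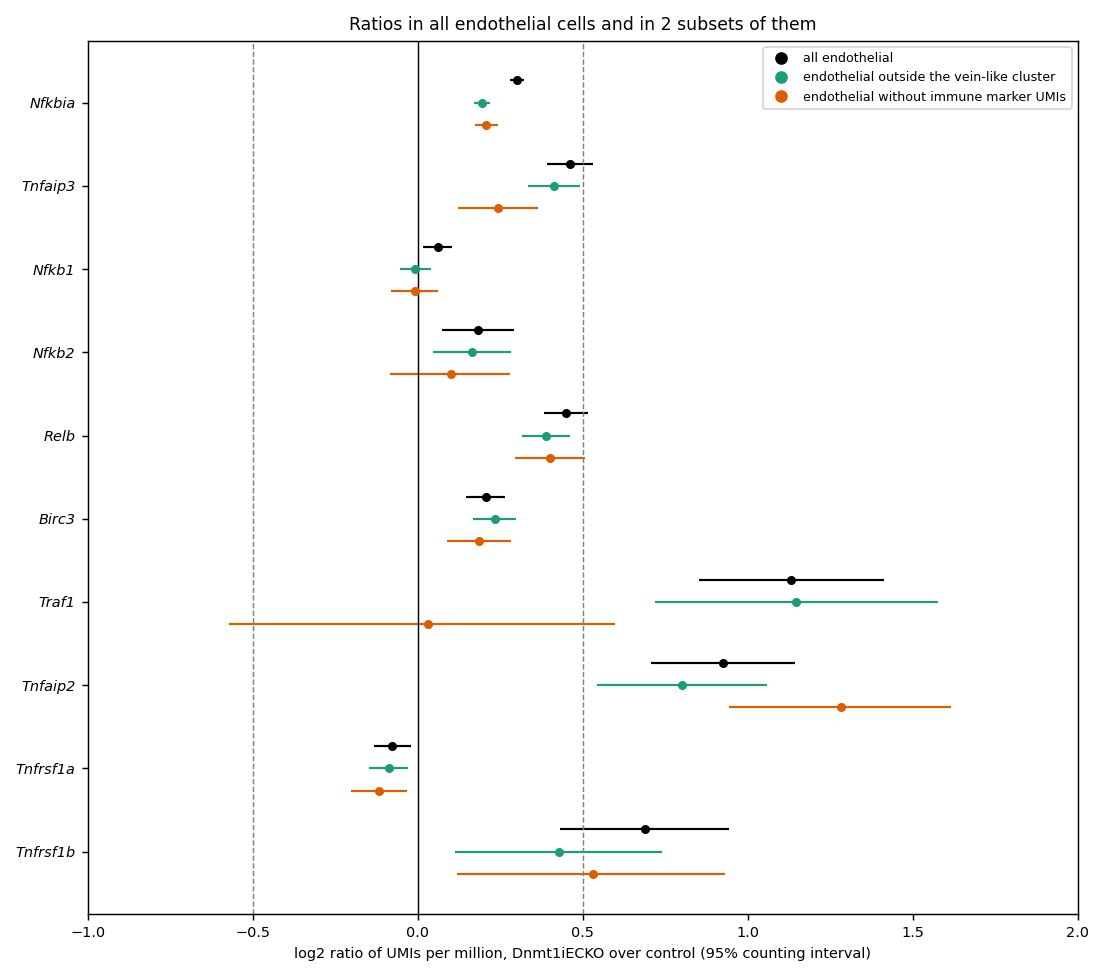
Log2 ratio of CPM, Dnmt1iECKO over control, of each member in all endothelial cells, in those outside the vein-like cluster and in those without a UMI of the immune marker lists, with exact 95% counting intervals. The Traf1 ratio falls from 1.13 to 0.03 without cells holding an immune marker UMI, and the Tnfaip2 ratio stays above 0.5 in all 3 sets.

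Immune cells of the same libraries gave few differences. Over all immune cells none of the 10 members passed the fold in either direction, beside 5.12% of all genes upward and 7.42% downward, and the same held for B cell-like cells (2.98% and 4.56%), macrophage- or monocyte-like cells (4.83% and 6.14%), dendritic cell-like cells (5.45% and 6.99%) and neutrophil-like cells (3.9% and 9.76%). None did either in an immune cluster led by Adgre4 (4.67% and 11.7%) or in one led by Kcnip4 and Chil3 (4.82% and 5.7%). In macrophage- or monocyte-like cells Traf1 was at 177 CPM in control and 234 CPM in Dnmt1iECKO cells, a log2 ratio of 0.40 (0.31 to 0.49), and Nfkb1 at 1734 and 1366 CPM, a log2 ratio of -0.34 (-0.37 to -0.31). In T cell-like cells Tnfrsf1a was lower, at 21.4 CPM in control and 12.8 CPM in Dnmt1iECKO cells, a log2 ratio of -0.75 (-1.14 to -0.34), and Tnfaip2 was higher from 3 and 40 UMIs, beside 6.06% of all genes downward and 3.76% upward. Summed endothelial markers in the T cell-like cells were at 256 CPM in control and 164.7 CPM in Dnmt1iECKO cells, with none of 9 at 0, and neutrophil markers at 1.39 and 10.98 CPM, with 5 and 0 of 6 at 0, and their part was not tested. NK cell-like cells, 61 and 172 of them, had 4 of 9 members higher, beside 4.3% of all genes upward and 6.77% downward. Birc3 was at 198 CPM in control and 356.5 CPM in Dnmt1iECKO cells, a log2 ratio of 0.85 (0.51 to 1.21), and Nfkb1 was at 650.5 and 974 CPM, a log2 ratio of 0.58 (0.39 to 0.78). Traf1 had a ratio of 0.60 (0.23 to 0.99) and Tnfrsf1b one of 0.70 (0.27 to 1.16) in the same cells. Thinned shares of these cells with a Birc3 UMI were 38.9% (25.9 to 53.1) in the control and 34.8% (27.5 to 42.6) in the Dnmt1iECKO library. For Nfkb1 they were 63.0% (48.7 to 75.7) and 66.5% (58.7 to 73.6). For Traf1 they were 22.2% (12.0 to 35.6) and 32.3% (25.2 to 40.05), and for Tnfrsf1b 22.2% (12.0 to 35.6) and 35.4% (28.1 to 43.2). The intervals overlapped for each member, and the Birc3 share was lower in the Dnmt1iECKO library. Summed endothelial markers in the NK cell-like cells were at 605 CPM in control and 108 CPM in Dnmt1iECKO cells, with 0 and 1 of the 9 genes at 0, and their part in these differences was not tested.

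Epithelial cells, 277 in the control and 161 in the Dnmt1iECKO library, had 3 members higher and 1 lower, beside 7.75% of all genes upward and 4.17% downward. The feedback gene Tnfaip3 was at 37.96 CPM in control and 68.0 CPM in Dnmt1iECKO cells, a log2 ratio of 0.84 (0.58 to 1.10). Tnfaip2 was at 7.04 and 22.0 CPM, a log2 ratio of 1.65 (1.10 to 2.21), and Tnfrsf1b at 7.85 and 14.9 CPM, a log2 ratio of 0.93 (0.35 to 1.51). After thinning to 2000 UMIs, the share of epithelial cells with a Tnfaip3 UMI was 6.02% (3.41 to 9.74) in the control and 4.05% (1.502 to 8.62) in the Dnmt1iECKO library, with overlapping intervals, so the higher level was not seen in the share of cells. For Tnfaip2, and likewise for Tnfrsf1b, the shares were 2.01% (0.655 to 4.62) and 2.70% (0.741 to 6.78), with overlapping intervals. Tnfrsf1a ran the other way, at 47.9 CPM in control and 33.6 CPM in Dnmt1iECKO cells, a log2 ratio of -0.51 (-0.82 to -0.21). Among them, alveolar type 1-like cells (122 and 61) had 6 members higher and 1 lower, beside 6.57% of all genes upward and 4.31% downward. There Tnfaip3 was at 46.4 CPM in control and 139.7 CPM in Dnmt1iECKO cells, a log2 ratio of 1.59 (1.17 to 2.03), Nfkb1 at 119.6 and 257 CPM, a log2 ratio of 1.10 (0.82 to 1.38), and Tnfaip2 at 12.1 and 53.5 CPM, a log2 ratio of 2.15 (1.35 to 3.002). Relb, Birc3 and Tnfrsf1b were the other higher members, and Tnfrsf1a the lower one. In the 98 and 48 of these cells with 2000 UMIs, thinned shares with a UMI were 4.08% (1.12 to 10.1) and 4.17% (0.509 to 14.3) for Tnfaip3, 13.3% (7.26 to 21.6) and 16.7% (7.48 to 30.2) for Nfkb1 and 4.08% (1.12 to 10.1) and 8.33% (2.32 to 19.98) for Tnfaip2. The intervals overlap for each of them, and at equal depth the Tnfaip3 shares lay close together. The median depth of these cells was 6490 UMIs in the control and 12611 in the Dnmt1iECKO library, summed T cell markers were at 5.38 and 48.5 CPM with 2 and 0 of 6 at 0, and summed macrophage or monocyte markers at 161 and 222 CPM with 3 and 0 of 8 at 0, and the part of these markers was not tested. In alveolar type 2-like cells (120 and 51) Tnfaip3, Tnfaip2 and Tnfrsf1b were higher, beside 4.65% upward and 5.45% downward. Thinned shares there were 6.67% and 5.88% for Tnfaip3, 0.833% and 0% for Tnfaip2 and 1.67% and 3.92% for Tnfrsf1b. The intervals overlapped for each of them. In airway-like cells none of 9 members was higher, beside 7.11% and 19.9%.

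In stromal cells, 381 and 510, only Traf1 was higher, at 4.15 CPM in control and 10.6 CPM in Dnmt1iECKO cells, a log2 ratio of 1.34 (0.87 to 1.85), beside 6.43% of all genes upward and 5.36% downward. The fibroblast-like cells showed the same single member, from 31 and 72 UMIs, beside 4.67% and 4.11%. Thinned shares with a Traf1 UMI were 0.525% (0.064 to 1.88) and 0.990% (0.322 to 2.30) in all stromal cells, with overlapping intervals. In fibroblast-like cells they were 0.749% and 0.553%, the Dnmt1iECKO share being the lower one. Among mesothelial-like cells Traf1 and Tnfaip2 were higher, beside 8.04% and 7.92%, and Tnfaip2 stood at 136 and 207.5 CPM there. Summed macrophage or monocyte markers in the mesothelial-like cells were at 28.6 CPM in control and 294 CPM in Dnmt1iECKO cells, with 1 and 0 of 8 genes at 0, and T cell markers at 10.6 and 28.2 CPM, with none of 6 at 0, and their part was not tested. In fibroblast-like cells macrophage or monocyte markers were at 269.5 and 115 CPM and T cell markers at 11.3 and 24.1 CPM, with none at 0. Pericyte- or smooth muscle-like cells had Nfkb1 higher, at 573 CPM in control and 813 CPM in Dnmt1iECKO cells, and Nfkbia, Nfkb2 and Tnfrsf1a lower, beside 8.37% of all genes upward and 10.8% downward. Thinned to 2000 UMIs, 42.2% (29.9 to 55.2) of the control and 30.9% (20.2 to 43.3) of the Dnmt1iECKO cells held an Nfkb1 UMI. These intervals overlapped, so the higher Nfkb1 level was not seen in the share of cells. Nfkbia fell there from 1759 to 1211 CPM, a log2 ratio of -0.54 (-0.65 to -0.43). Summed endothelial markers in these cells were at 1869 CPM in control and 467.5 CPM in Dnmt1iECKO cells, with none of 9 at 0, macrophage or monocyte markers at 24.2 and 131 CPM, with 4 and 1 of 8 at 0, and the median depth was 15930 and 10886 UMIs, and the part of these was not tested.

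The class with the highest level was the same in both libraries for 6 of the 10 members and differed for Nfkbia, Tnfaip3, Nfkb1 and Nfkb2. Nfkbia was highest in neutrophil-like cells of the control library, at 3189 CPM (2981 to 3407), followed by the Adgre4-led immune cluster at 2476 CPM (2387 to 2567) and Slc6a2/Selp endothelial cells at 2449 CPM (2351 to 2550), whose intervals overlap. In the Dnmt1iECKO library Slc6a2/Selp cells, at 2927 CPM (2832 to 3024), and neutrophil-like cells, at 2851 CPM (2766 to 2939), led with overlapping intervals, and B cell-like cells were lowest in both libraries, at 294 and 331.5 CPM. The Slc6a2/Selp and Gja5/Bmx classes thus ranked with myeloid cells for this inhibitor gene, above Kit/Bmp6 cells at 957 and 1045 CPM and Ednrb/Car4 cells. Endothelial clusters were not part of this order, and a high Nfkbia level was not confined to venous and arterial cells. In the general capillary-like cluster led by Adamts9 and Ifit1, 89.0% and 90.8% of thinned cells held an Nfkbia UMI. The shares were 75% and 86.6% in Slc6a2/Selp cells and 77.4% and 73.3% in Gja5/Bmx cells. Tnfaip3 was led by T cell-like cells in the control library, at 878 CPM (848 to 909), with NK cell-like cells at 827 CPM (742 to 919) overlapping them, and by NK cell-like cells in the Dnmt1iECKO library, at 1001 CPM (943 to 1062). Nfkb1 was highest in macrophage- or monocyte-like cells of the control library, at 1734 CPM, and in mesothelial-like cells of the Dnmt1iECKO library, at 1542 CPM. For the non-canonical gene Relb and the adaptor gene Traf1 dendritic cell-like cells led both orders, at 367.5 and 388 CPM for Relb and at 648 and 699 CPM for Traf1. Nfkb2 was highest in the Adgre4-led cluster of the control library, at 136 CPM (115.5 to 158), and in dendritic cell-like cells of the Dnmt1iECKO library, at 115 CPM (105 to 126), each overlapping neutrophil-like cells, at 113 CPM (76.9 to 161) and 105 CPM (89.5 to 123). Birc3, Tnfaip2 and Tnfrsf1b were highest in neutrophil-like cells in both libraries, at 719.5 and 736 CPM, at 1581 and 1305 CPM and at 372.5 and 338 CPM. At the other end, Birc3 and Tnfrsf1b were lowest in Ednrb/Car4 cells in both libraries, and Tnfaip2 was lowest in T cell-like cells of the control library, at 0.834 CPM, and in B cell-like cells of the Dnmt1iECKO library, at 1.90 CPM, where the interval (0.9495 to 3.40) overlapped that of Ednrb/Car4 cells (0.861 to 4.41).

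The genes most like each member were ranked by Spearman correlation of log2(CPM + 1) over 38 profiles (19 classes in 2 libraries) among 9904 genes with a mean of at least 10 CPM, given as a description, since profiles of a library share its depth and its free RNA. The closest to Nfkbia were Nfkbiz (0.909) and Ndel1 (0.869), and the closest to Tnfaip3 were Fosl2 (0.886) and Zfp36l2 (0.870). Nfkb1 lay closest to B4galt5 (0.845) and Cd44 (0.813), Nfkb2 to Nfkbie (0.913) and Pim1 (0.890), and Relb to Nfkb2 (0.886) and Dennd4a (0.867). For Birc3 they were Nfkb2 (0.839) and Nup98 (0.818), and for Traf1 Cytip (0.838) and Sema4d (0.825). Tnfaip2 paired with Gabarap (0.884) and Mir22hg (0.857), Tnfrsf1a with Cdc42ep2 (0.907) and 6430548M08Rik (0.876), and Tnfrsf1b with Pim1 (0.900) and Bcl2l11 (0.892). Among these pairs of closest genes, a member of the set appeared for Relb and for Birc3, in both cases Nfkb2.

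The other genes of the pathway were listed by role. Over all endothelial cells 11 of the listed genes were higher in the Dnmt1iECKO library and 1 was lower, read against the 5.79% and 3.02% given above. Of the ligands, 5 of 10 had the minimum. Tnf was higher, at 1.17 CPM in control and 2.81 CPM in Dnmt1iECKO cells, from 60 and 65 UMIs. Il1b was higher too, at 3.48 and 8.56 CPM, from 179 and 198 UMIs. Summed neutrophil and macrophage or monocyte markers were also higher in these cells, as given above, and their part in both was not tested. Il1a fell, at 20.5 and 12.98 CPM, a log2 ratio of -0.66 (-0.85 to -0.47). Of 10 receptor genes Tnfrsf11a, the receptor for RANK ligand, was higher, with a log2 ratio of 1.44 (1.11 to 1.76), and of 18 adaptor and kinase genes only Map3k14, the kinase that starts the non-canonical pathway, was, at 37.6 and 54.0 CPM, a log2 ratio of 0.52 (0.42 to 0.62). Neither of the other Rel genes passed the fold, and of 10 inhibitor genes Tnip1, whose product partners with that of Tnfaip3, did, at 57.6 and 90.4 CPM, a log2 ratio of 0.65 (0.57 to 0.73). The median of the other target genes was -0.04 in Ednrb/Car4, 0.02 in Kit/Bmp6, 0.08 in Slc6a2/Selp and 0.18 in Gja5/Bmx cells. Over all endothelial cells 6 of 19 other target genes were higher and none lower, with a median of 0.21. Among these the leukocyte adhesion genes Sele, at 35.2 CPM in control and 96.6 CPM in Dnmt1iECKO cells, and Vcam1, at 138 and 373 CPM, had log2 ratios of 1.46 (1.37 to 1.55) and 1.44 (1.39 to 1.48), and the chemokine gene Cxcl2 had 1.29 (1.00 to 1.57). Within Slc6a2/Selp cells the Vcam1 ratio was 0.54 (0.46 to 0.61), from 2254 and 3265 CPM, and within Kit/Bmp6 cells 0.85 (0.71 to 0.99), from 47.2 and 85.2 CPM. Genes of the response to tissue dissociation, which include early-response genes, had none of 13 past the fold and a median of 0.08. Over the immune cells the ligand gene Tnf was at 259 CPM in control and 199 CPM in Dnmt1iECKO cells, and Il1b at 3025 and 3062 CPM. Among the ligands there Lta was past the fold upward, at 2.24 and 4.61 CPM, a log2 ratio of 1.05 (0.59 to 1.53) from 45 and 272 UMIs, and Il1a downward, at 373 and 232 CPM, a log2 ratio of -0.69 (-0.73 to -0.65).

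**Figure D4:**
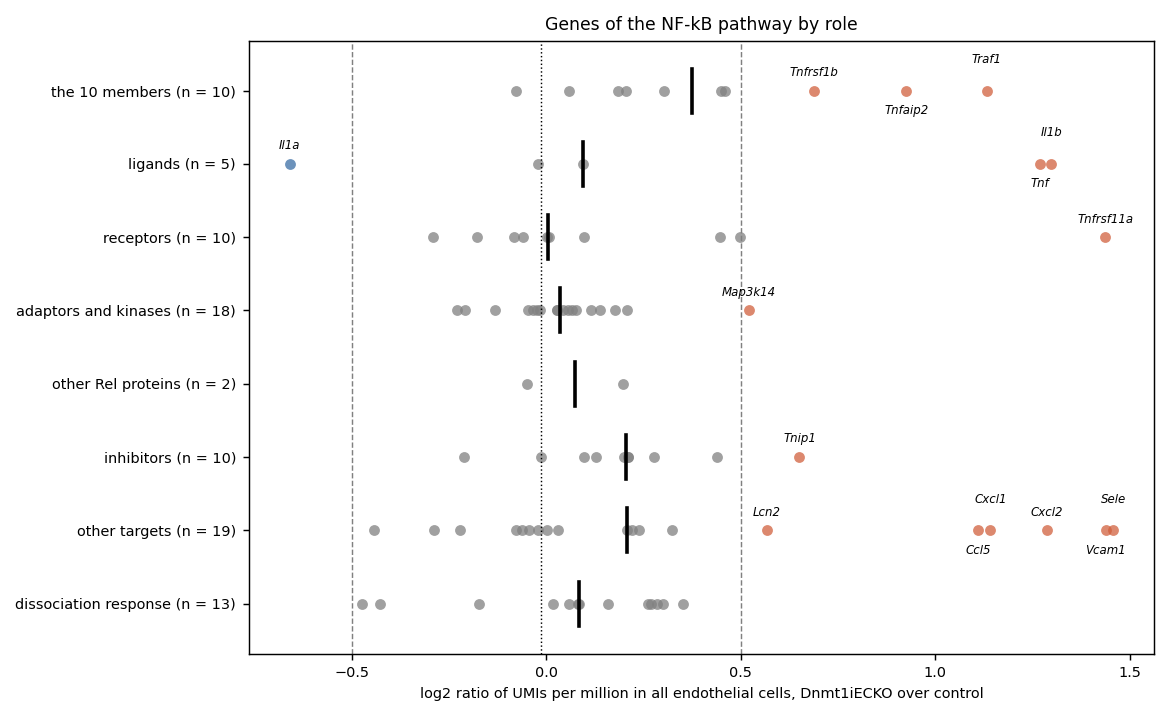
Log2 ratio of CPM, Dnmt1iECKO over control, over all endothelial cells for each gene of the members and of the pathway lists by role, 1 point per gene, with a black bar at the median of each list and a dotted line at the median of all genes tested, -0.01. The members' median of 0.37 is the highest of the lists shown, and the 6 other targets past a log2 ratio of 0.5 spread up to 1.46.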

How the data were processed

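The deposited matrices hold UMI counts per gene and cell, which the authors made with Cell Ranger 9.0.1 on mm10, 1 library per condition. The study's own filters, doublet calls and cell names were not used here. Cells with at least 500 genes and at most 10% mitochondrial counts were kept, and the highest Scrublet scores (scanpy 1.11.5), 0.4% per 1000 cells, were removed as doublets, 257 and 263 cells. Cells were clustered on 2000 variable genes without the members and Dnmt1 (30 principal components, 20 neighbours, Leiden resolution 1.5, leidenalg 0.10.2, no integration of libraries). Clusters were called "-like" where at least 3 listed markers were each in 10% or more of its cells and had a log2 fold of 1 or more. These markers also had to make up 40% of their list with 1 among the 10 leading genes, or 70% without. Endothelial clusters that shared leading genes with a stromal, epithelial or immune cluster, and clusters with few cells in a library, stayed unnamed. These limits were set after the clusters were seen. UMIs were summed per class and library. Levels (CPM) carry exact Poisson intervals, ratios exact conditional intervals and shares Clopper-Pearson intervals, all at 95% (Python 3.11.15, numpy 2.4.6, scipy 1.17.1, pandas 2.3.3, matplotlib 3.10.9). These steps were tested on simulated data. Ratios within a class needed 20 UMIs. The members and lists were chosen with earlier results of these data known. Besides the members and Dnmt1, the text names the pathway genes past the fold with at least 100 UMIs, at most 3 a list, and the 2 genes most like each member; Vcam1 by class was added after its values were seen.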

Additional observations from a re-analysis of the deposited data

How the results depend on the processing

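No paired analysis was possible because each condition is 1 library. Of the values that answer a comparison, 127 recomputed ones kept within their range and 21 moved, and of single members' ratios 467 kept, 48 moved and 8 changed sign. The members' median ratio of 0.37 over all endothelial cells became 0.27 with Cdh5 or Pecam1 cells of any cluster, 0.30 with the mean of CPM over cells and 0.24 with the class sizes of the control library. It became 0.31 without the Selp-led (vein-like) cluster and 0.20 without cells holding an immune marker UMI, both chosen after seeing the data. Members higher numbered 1 at a log2 fold of 1.0 and 6 at 0.25. For these counts and those below, the share of all genes at the same setting is not given. They show only how the calls move with the setting. With cells of any cluster, 1 member was higher in Ednrb/Car4 and 1 in Kit/Bmp6 cells and 2 listed pathway genes were lower, which became 0 at a fold of 1.0. A mitochondrial limit of 5% gave 1 higher in Kit/Bmp6 cells, and clusters named from markers gave 1 in each capillary class. The mean of CPM gave 2 higher in Gja5/Bmx cells and 5 higher and 2 lower in epithelial cells, where keeping doublets left 0 lower. Pairs read after thinning gave 1 higher and 3 lower in Slc6a2/Selp cells and 1 lower in Gja5/Bmx cells, with ratios of -0.087 for Tnfaip2 in Kit/Bmp6 cells and, in Slc6a2/Selp cells, -0.14 for Nfkb1 and -0.30 for Tnfrsf1b. Nfkb1 over all endothelial cells became -0.00092 with control class sizes, -0.0076 without the Selp-led cluster and -0.010 without immune marker UMIs. In the aerocyte-like cluster Nfkbia gave 0.026 and Nfkb1 0.0023. The causes were not tested. Depth limits Traf1, Tnfaip2 and Tnfrsf1b most.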

Other observations

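Among immune ligands outside the comparisons above, the level of Il1b in T cell-like cells was 3.34 CPM in control and 26.4 CPM in Dnmt1iECKO cells, from 12 and 385 UMIs, while neutrophil-like cells, its richest class, stood at 13729 and 16799 CPM from 52 and 278 cells. Tnfsf11, the gene for RANK ligand, stood at 175 and 155 CPM in T cell-like cells, and Tnf in macrophage- or monocyte-like cells at 454 and 390 CPM.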
